A study of Mus musculus with 3 samples.

Results

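Zfp genes encode proteins with zinc fingers, most of them of the C2H2 kind, in which a pair of cysteines and a pair of histidines hold a zinc ion. In the mouse genome they form one of the largest families of DNA-binding proteins, and many lie in rows that arose by gene duplication. A large class also carries a KRAB box, which recruits Trim28 (KAP1) and, through it, the histone methyltransferase Setdb1 to silence retroelements and nearby genes. Other members bear the Zfp name but act elsewhere, in ribosome assembly, RNA binding, the mitotic spindle or ubiquitin transfer.

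Members were the genes whose symbol is Zfp followed by a number, without Zfp36 (a C3H finger protein that binds AU-rich mRNA), with FPKM (fragments normalised to transcript length and to the mapped fragments of the library) of at least 1 in at least 1 of the 3 libraries. Of 332 such symbols among the 23361 genes in the tables, 159 met this filter, out of 10792 genes of any name. Another 173 stayed below 1 FPKM in every library, and 14 of these were listed at 0 throughout. Of the members, 123 reached 1 FPKM in all 3 libraries, 17 in 2 libraries and 19 in 1 library only, of which 8 in sham, 7 in WI and 4 in IR. The members nearest the threshold were Zfp692, Zfp229 and Zfp324, whose highest FPKM was 1.0035, 1.0065 and 1.0119, and the nearest genes outside it were Zfp516, Zfp963 and Zfp595, at 0.98052, 0.97302 and 0.96023. A member that passed through 1 library had to be lower in the others, so medians and counts over the 159 are set beside those over the 123 where they are read.

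The livers came from C57BL/6J mice labelled male and 8 to 10 weeks of age, without any transgene or deleted allele. Mice were fasted beforehand and operated on under chloral hydrate. In the sham group the abdomen was opened without clamping and the liver was taken 90 min later. Clamping lasted 90 min in warm ischemia (WI) and was followed by 120 min of restored flow in ischemia followed by reperfusion (IR). The clamp closed the portal triad to the left and median lobes only. No sham group was sampled at the time of the IR group, so reperfusion and the added time after surgery cannot be told apart. Each group had 6 mice and 1 mRNA library, and the pooling of mice was not given in the sources used here. No difference below therefore has a replicate check, and none was tested.

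The sham and WI libraries went against their label for sex. Xist, the RNA of the inactive X chromosome, was at 18.86 FPKM in sham, 20.15 in WI and 1.289 in IR, whereas the Y-linked Ddx3y was at 0, 0.008487 and 8.584 FPKM and Eif2s3y at 0, 0 and 13.19. For every comparison with the IR library, the sex markers and the treatment cannot be told apart. Only 1 member, Zfp275, lies on the X chromosome and 0 lie on the Y, and without genes of the sex chromosomes the median differences of the members from genes of similar FPKM were 0.00315 (WI against sham), -0.0317 (IR against WI) and -0.0382 (IR against sham) on the log2 scale. The tissue label was borne out by hepatocyte markers, with a summed FPKM of 24030, 22210 and 32420 in sham, WI and IR over 7 genes, although albumin (Alb) was listed at 0 in each. Markers of other liver cells moved between libraries. The 8 neutrophil markers summed to 25.79, 19.56 and 462.1 FPKM and 7 of them were higher in IR than in WI, with Mpo and Camp below 1 FPKM in every library. The 7 Kupffer cell and macrophage markers summed to 461.0, 233.7 and 156.7 FPKM, with 0 of 7 higher in WI than in sham and 2, Marco and Cd68, higher in IR than in WI. The 5 sinusoidal endothelial markers summed to 107.8, 78.27 and 89.0, but only 1 of them, Lyve1 (2.727 FPKM in WI and 33.40 in IR), was higher in IR than in WI. The 6 lymphocyte markers summed to 6.504, 4.992 and 2.477. In such bulk tissue, fewer cells of a type and less RNA per cell cannot be told apart, and the part of these shifts in the results below was not tested.

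Zfp mRNAs were scarce in all 3 livers. The median FPKM of the members was 2.15 in sham, 2.01 in WI and 2.02 in IR, against 6.17, 6.18 and 6.49 for the other 10633 genes past the filter. At least 10 FPKM was reached by 7 members in sham, 7 in WI and 10 in IR (4.4%, 4.4% and 6.29%), whereas 36.9%, 37.4% and 39.1% of the other genes did so. The summed FPKM of all members was 524.4, 510.7 and 533.8, which is 0.11%, 0.105% and 0.0749% of the FPKM of all genes, since the total of the IR library was larger. Members at 1 FPKM or more numbered 148 in sham, 145 in WI and 129 in IR, while for genes of any name the numbers were 10324, 10146 and 10088.

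The most abundant member in WI and IR was Zfp207 (BuGZ, a partner of the checkpoint protein Bub3 in spindle assembly), with 19.68 FPKM in sham, 19.86 in WI and 24.68 in IR. Zfp91, a ubiquitin ligase described for the kinase NIK, came first in sham with 20.85 FPKM and stood at 17.90 in WI and 12.62 in IR. It shares its locus with other genes in the annotation, so the split of reads among them is uncertain. Zfp706 had 16.80, 18.02 and 21.72 FPKM, and Zfp598, the ubiquitin ligase that marks collided ribosomes, had 12.52, 11.92 and 15.54. Zfp259, which RefSeq names Zpr1 and which binds the elongation factor eEF1A, had 11.82, 12.58 and 16.02 FPKM, and Zfp771 had 12.62, 12.42 and 10.54. Of these 6, 4 were highest in IR and 2 were lowest there. The Cuffdiff bounds of each overlapped among all 3 libraries. The 95% bounds that Cuffdiff gives describe its model of the fragments in a library, not variation between mice. Over the members, the distance from the FPKM to its upper bound had a median of 56.8% of the FPKM, so the bounds of such a gene part only beyond a 3.62-fold difference.

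Differences between libraries are differences in log2(FPKM + 1), on which scarce mRNAs appear to change less than they do in FPKM, and 1.5-fold refers to FPKM + 1. Zfp genes differed little between WI and sham. The median difference of the members was -0.04 on this scale (0.02 for the other genes), with 67 members higher in WI and 92 lower, and the middle 50% of members lay between -0.14 and 0.08. Just 1 member was at least 1.5-fold higher in WI (0.629% of members), where 3.14% of all 10792 genes were, and 1 was at least 1.5-fold lower (0.629%), where 4.27% of all genes were. Bounds that did not overlap were found for 0 members in either direction, against 0.195% of all genes for higher and 0.482% for lower values in WI.

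The member with the higher value was Zfp395, a DNA-binding protein first described at the huntingtin gene promoter. It had 6.61 FPKM in sham, 11.73 in WI and 5.94 in IR, a difference of 0.74 for WI against sham and -0.88 for IR against WI. Its WI value was thus above near-equal sham and IR values, and all 3 pairs of bounds overlapped. With FPKM rescaled to a common sum per library, it was also at least 1.5-fold lower in IR than in sham (-0.67). Its IR bounds then lay below those of WI. The member with the lower value was Zfp292, a large protein first described at the growth hormone gene promoter, with 3.63 FPKM in sham, 1.67 in WI and 1.75 in IR. Its difference was -0.79 for WI against sham and 0.04 for IR against WI, so the low value in WI was met again in IR.

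Below the 1.5-fold mark, the next highest for WI against sham were Zfp825, with 6.16, 9.34 and 5.67 FPKM in sham, WI and IR (0.53), and Zfp707, described below (0.50). The others named for a high value in WI were Zfp324 (0.41), Zfp46 (0.35), Zfp219 (0.35), Zfp932 (0.35) and Zfp708 (0.29). Zfp324 and Zfp46 passed the filter through WI only, so they had to be higher there. On the low side, Zfp746 (PARIS), a Parkin substrate that represses the gene of the coactivator PGC-1α, had 4.37, 2.75 and 3.88 FPKM and a difference of -0.52. It was lowest in WI and closer to sham in IR. Zfp472 (-0.47), Zfp748 (-0.46), Zfp869 (-0.42), Zfp770 (-0.40), Zfp623 (-0.35) and Zfp131 (-0.35) completed the 8 lowest. Zfp472 passed the filter through sham only and Zfp748 through sham and IR, so both had to be lower in WI than in sham. Zfp748 also had a lower bound of 0 in sham and IR. Zfp219 and Zfp708 share loci with other genes in the annotation.

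The members spread over a wider range between IR and WI. Their median difference was -0.10 (0.03 for the other genes), with 66 higher in IR and 93 lower, and the middle 50% lay between -0.33 and 0.25. For the 123 members at 1 FPKM or more in every library the median was -0.03, with 58 higher and 65 lower. At least 1.5-fold higher in IR were 9 members (5.66%), beside 12.4% of all genes, and at least 1.5-fold lower were 7 members (4.4%), beside 7.4%. Among the 123 the counts were 7 and 7, beside 1074 and 670 of 9467 other genes under the same filter. The counts of members rest on the pseudocount. With 0.1 in place of 1, 18 of the 159 were higher (11.3%, all genes 15.7%) and 33 lower (20.8%, all genes 13.0%), which turned the balance to more lower than higher. A 2-fold difference was reached by 3 members upward (5.78% of all genes) and by 0 downward (1.43%). Bounds that did not overlap were found for 0 members, beside 3.22% of all genes for higher and 0.398% for lower values in IR.

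**Figure D1:**
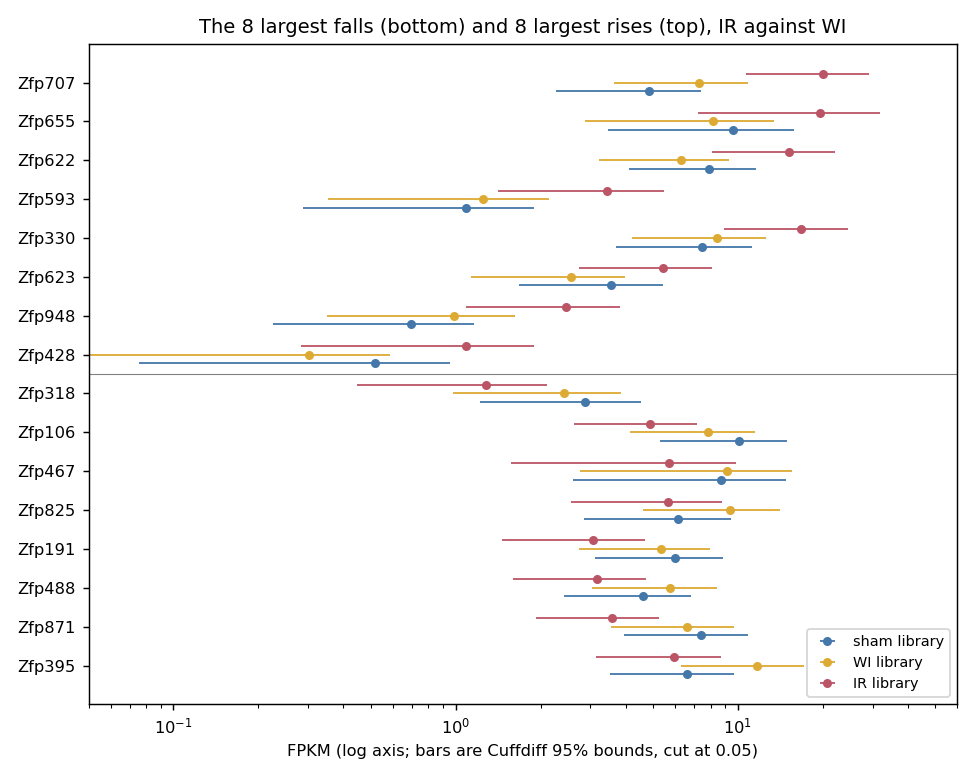
FPKM of the 8 members lowest and the 8 members highest in IR relative to WI, on a log axis, with a point for each library and bars for the Cuffdiff 95% bounds (1 library per condition). Zfp707, Zfp655, Zfp622 and Zfp330 reached 15.12 to 19.96 FPKM in IR from 6.27 to 8.41 in WI, while Zfp395 and Zfp825, among the falls, had 11.73 and 9.34 FPKM in WI and no more than 6.61 in the other libraries.

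The highest difference belonged to Zfp707, a KRAB protein for which 7 fingers were found. It had 4.83 FPKM in sham (bounds 2.27 to 7.39), 7.26 in WI (3.65 to 10.88) and 19.96 in IR (10.72 to 29.20). The difference was 1.34 for IR against WI and 1.85 for IR against sham, or 4.13-fold in FPKM for the latter. Each library exceeded the one before it in the order sham, WI, IR, and the IR bounds lay above those of sham and overlapped those of WI. Zfp655 (Vik, a KRAB protein that interacts with the exchange factor Vav1) had 9.61, 8.17 and 19.53 FPKM, and its difference for IR against WI was 1.16. Its values in sham and WI were close, and its IR bounds (7.24 to 31.8) overlapped both.

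3 members with few or no C2H2 fingers followed, and these are nucleolar proteins or ribosome assembly factors. Zfp622, the counterpart of yeast Rei1 in the late maturation of the large ribosomal subunit, had 7.88 FPKM in sham, 6.27 in WI and 15.12 in IR, a difference of 1.15 for IR against WI. Zfp593, the counterpart of yeast Bud20 on the pre-60S particle, had 1.09, 1.25 and 3.44 FPKM, a difference of 0.98. Its locus is shared with another gene in the annotation, so its values are uncertain. Zfp330, a nucleolar protein also known as NOA36, had 7.44, 8.41 and 16.78 FPKM, a difference of 0.92. All 3 were highest in IR, with overlapping bounds. Between sham and WI, Zfp622 was lower in WI (-0.29), and Zfp593 (0.10) and Zfp330 (0.16) were slightly higher.

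The remaining members past 1.5-fold were Zfp623, with 3.55, 2.56 and 5.43 FPKM (0.85), Zfp948, with 0.69, 0.99 and 2.45 (0.80), Zfp428, with 0.52, 0.30 and 1.09 (0.68), and Zfp410, with 4.31, 3.36 and 5.98 (0.68). Zfp948 and Zfp428 reached 1 FPKM in the IR library only, through which they passed the filter. Zfp410 is known as an activator that acts mainly on Chd4, the gene of a nucleosome remodeller. Chd4 itself was at 11.73 FPKM in sham, 8.51 in WI and 6.65 in IR, so the level of Chd4 went down over the libraries while that of Zfp410 was highest in IR.

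Zfp623 and Zfp707 are neighbours on chromosome 15, separated by 19.8 kb (mm10, Zfp623 at 75940952 to 75949400, Zfp707 at 75969185 to 75975865). Among the other 8 genes within 60 kb, Fam83h (0.82), Eef1d (0.47), Mapk15 (0.46), Tsta3 (0.26) and Naprt1 (0.07) were higher in IR than in WI. Ccdc166 (-0.19), Tigd5 (-0.16) and Pycrl (-0.08) were lower. On this scale the 2 Zfp genes had the highest differences of the 10 for IR against WI, Zfp623 only just above Fam83h. Both were singled out for their high differences, so this rank is not a separate result. For IR against sham, Fam83h (0.78), Naprt1 (0.67), Mapk15 (0.61) and Eef1d (0.51) were above Zfp623 (0.50).

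On the low side for IR against WI, after Zfp395, stood Zfp871, a KRAB protein with 15 fingers found. It had 7.39 FPKM in sham, 6.61 in WI and 3.59 in IR, a difference of -0.73. Zfp488, a partner of Olig2 in oligodendrocytes, had 4.62, 5.75 and 3.16 FPKM (-0.70), and Zfp191, which RefSeq names Zfp24 and which is needed for myelination, had 5.98, 5.36 and 3.08 (-0.64). These 3 were lowest in IR. Zfp825 (-0.63), Zfp467, with 8.71, 9.15 and 5.71 FPKM (-0.60), and Zfp106, an RNA-binding protein needed for motor neuron upkeep, with 10.11, 7.84 and 4.89 FPKM (-0.59), also passed 1.5-fold. Zfp318, which is required for IgD expression in B cells, came just under it with 2.87, 2.42 and 1.28 FPKM (-0.58). Zfp106 stepped down at each library, whereas Zfp825 and Zfp467 were highest in WI.

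For orientation, the bases before the RefSeq start sites of 3 members that were high in IR and 2 that were low are given below, 5′ to 3′ on the gene's strand, with each CG in capitals. RefSeq (GRCm38.p6) lists them at chr15:25984116-25984365 on the plus strand for Zfp622, chr5:145231492-145231714 on the plus strand for Zfp655 and chr8:82774146-82774395 on the minus strand for Zfp330. Those of Zfp871, at chr17:32788288-32788537, and Zfp106, at chr2:120563860-120564109, are on the minus strand.
Zfp622: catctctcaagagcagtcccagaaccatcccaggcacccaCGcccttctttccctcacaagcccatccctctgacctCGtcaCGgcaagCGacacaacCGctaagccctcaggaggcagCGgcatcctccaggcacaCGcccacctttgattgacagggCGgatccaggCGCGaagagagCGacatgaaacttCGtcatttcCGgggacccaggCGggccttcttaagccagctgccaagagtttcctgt
Zfp655: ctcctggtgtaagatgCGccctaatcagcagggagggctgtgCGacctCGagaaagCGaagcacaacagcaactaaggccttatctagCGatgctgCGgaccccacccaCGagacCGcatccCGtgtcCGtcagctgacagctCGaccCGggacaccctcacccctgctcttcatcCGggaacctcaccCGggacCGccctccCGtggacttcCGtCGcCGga
Zfp330: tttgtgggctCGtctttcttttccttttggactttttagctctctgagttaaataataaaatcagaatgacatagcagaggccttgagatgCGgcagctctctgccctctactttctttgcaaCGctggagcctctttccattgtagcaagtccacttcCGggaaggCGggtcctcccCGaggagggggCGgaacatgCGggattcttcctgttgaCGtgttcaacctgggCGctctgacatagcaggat
Zfp871: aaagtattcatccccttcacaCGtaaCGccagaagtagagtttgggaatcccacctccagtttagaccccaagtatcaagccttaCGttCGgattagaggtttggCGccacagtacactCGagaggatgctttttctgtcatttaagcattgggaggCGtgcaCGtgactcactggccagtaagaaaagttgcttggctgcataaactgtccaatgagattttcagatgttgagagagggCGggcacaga
Zfp106: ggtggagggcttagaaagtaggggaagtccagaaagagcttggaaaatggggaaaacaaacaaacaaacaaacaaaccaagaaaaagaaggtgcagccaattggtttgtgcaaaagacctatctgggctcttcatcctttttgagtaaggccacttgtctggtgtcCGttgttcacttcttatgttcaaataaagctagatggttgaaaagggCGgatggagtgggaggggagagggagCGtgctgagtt
The CG counts of these stretches were 14 in Zfp622, 19 in Zfp655 (over 223 bases) and 10 in Zfp330, and 9 in Zfp871 and 3 in Zfp106. Over 250 bases, start sites were listed for 5 of the 9 members at least 1.5-fold higher in IR than in WI, with a median of 12 CG. The 6 start sites listed for 5 of the 7 lower members had a median of 11. Zfp707 and Zfp395, the highest and the lowest member, had none listed. With so few start sites, which include the printed ones, no difference in CG between higher and lower members is read. Over the 163 start sites of the 130 members that the RefSeq table holds, the 250 bases before the start had a median of 13 CG and 56.4% G or C. The medians were 15 and 59.6% over 10378 start sites of all genes past the filter, and 6 and 52.4% over all 32851 start sites in the table. Members in which a KRAB A box was found by pattern (66 start sites) had a median of 9 CG and 52.4% G or C. Those in which none was found (93 start sites) had 17 and 61.6%.

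Short motifs were sought on both strands of the same 250 bases. CACGTG, the E-box, was in 7.36% of the members' start regions and in 8.43% of those of all genes past the filter. TGACGTCA, the cAMP response element, was in 4.29% against 2.51%, CTACAANTC, the core letters of the ZNF143 site, in 3.68% against 2.42%, GAANNTTC in 6.13% against 5.21%, and TGANTCA, the AP-1 site, in 3.68% against 4.85%. Among the printed stretches, that of Zfp622 holds GAANNTTC, and that of Zfp871 holds CACGTG and TGANTCA. The members' shares rest on 6 to 12 start regions for each motif, and a match is only a match of letters.

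Over the whole course, IR against sham, the median difference of the members was -0.13 (0.06 for the other genes), with 62 higher and 97 lower. For the 123 members at 1 FPKM or more in every library it was -0.06, with 56 higher and 67 lower. At least 1.5-fold higher in IR were 7 members (4.4%), beside 14.3% of all genes, and at least 1.5-fold lower were 9 members (5.66%), beside 9.49%. Among the 123 the counts were 6 and 7, beside 1306 and 792 of 9467 other genes under the same filter. Bounds that did not overlap were found for 1 member with a higher value, Zfp707, where 2.7% of all genes had them, and for 0 members with a lower value, where 1.12% did. With FPKM rescaled to a common sum per library, the bounds of Zfp707 overlapped and 0 members were higher (1.54% of all genes), while those of 4 members parted with lower values, Zfp106, Zfp12, Zfp292 and Zfp871 (2.52%, all genes 4.53%). The WI library enters 2 of the 3 comparisons, as do sham and IR, so the differences of a gene in the 3 comparisons are tied.

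The 7 members higher in IR than in sham were Zfp707 (1.85), Zfp593 (1.08), Zfp330 (1.07), Zfp948 (1.03), Zfp655 (0.95), Zfp622 (0.86) and Zfp64 (0.60). Zfp64, which is known to act at the promoter of the gene MLL, had 1.67, 2.02 and 3.04 FPKM in sham, WI and IR. Zfp954 (0.53) stood just under the mark. The lowest were Zfp106 (-0.92), Zfp871 (-0.87), Zfp191 (-0.78), Zfp318 (-0.76), Zfp292 (-0.75), Zfp12 (-0.70), Zfp91 (-0.68) and Zfp652 (-0.67). Zfp292 had its lower value already in WI. Zfp12 had 2.05, 1.79 and 0.88 FPKM and Zfp652 3.15, 2.82 and 1.62, with the lowest value in IR for both. Zfp12 passed the filter through sham and WI, so it had to be lower in IR.

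The library that held a gene's extreme values was counted as well. IR was the lowest of the 3 libraries for 86 members (54.1%), against 37.2% of the other genes. Sham was the lowest for 30 members (18.9%), against 36.0% of the others. The highest value was in IR for 55 members (34.6%, others 44.5%), in sham for 60 (37.7%, others 28.6%) and in WI for 44 (27.7%, others 27.0%). Members that reached 1 FPKM through sham or WI only add to these counts. Among the 123 at 1 FPKM or more throughout, IR was the lowest library for 58 (47.2%, others 35.7% under the same filter) and sham for 28 (22.8%, others 37.9%). The other genes in these counts were not matched for level. Weighted to the FPKM levels of the members, 54.2% of other genes were lower in IR than in WI, against 58.5% of members. For IR against sham the shares were 56.0% and 61.0%.

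Because genes of low FPKM dominated the family, each member was also set against the median of all other genes in its class of mean FPKM, with classes 0.5 wide on log2(FPKM + 1). The median distance of the members from their classes was 0.01 for WI against sham, -0.03 for IR against WI and -0.04 for IR against sham. In the same order, 83, 72 and 74 of the 159 members lay above the median of their class. Over all classes together, the Zfp genes were thus centred close to other genes, but single classes differed for IR against WI. In the lowest class with members (19 members, mean FPKM from 0.414) their median was -0.254, against -0.0116 for other genes. No gene there reached 1 FPKM in every library. From 1.0 (46 members) it was -0.18 against -0.084, and from 1.83 (42 members) 0.0178 against -0.0641. From 10.3 (6 members) it was 0.638 against 0.0508. The extremes were fewer with the pseudocount of 1. With the other genes weighted to the members' classes, 1.95% were at least 1.5-fold higher and 3.93% lower in WI than in sham, against 0.629% of members in each direction. For IR against WI the weighted shares were 11.2% and 7.26%, against 5.66% and 4.4% of members, and for IR against sham 11.1% and 11.7%, against 4.4% and 5.66%. The middle 50% of members spanned 0.229, 0.582 and 0.499 on the log2 scale in the 3 comparisons, and that of the weighted other genes 0.334, 0.571 and 0.613. For IR against WI the central spread of the members was therefore not narrower than that of their classes. With a pseudocount of 0.1, 20.8% of members were at least 1.5-fold lower in IR than in WI, beside 13.0% of all genes without weighting. The extremes were then more frequent on the low side, and on the high side still fewer (11.3%, all genes 15.7%).

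**Figure D2:**
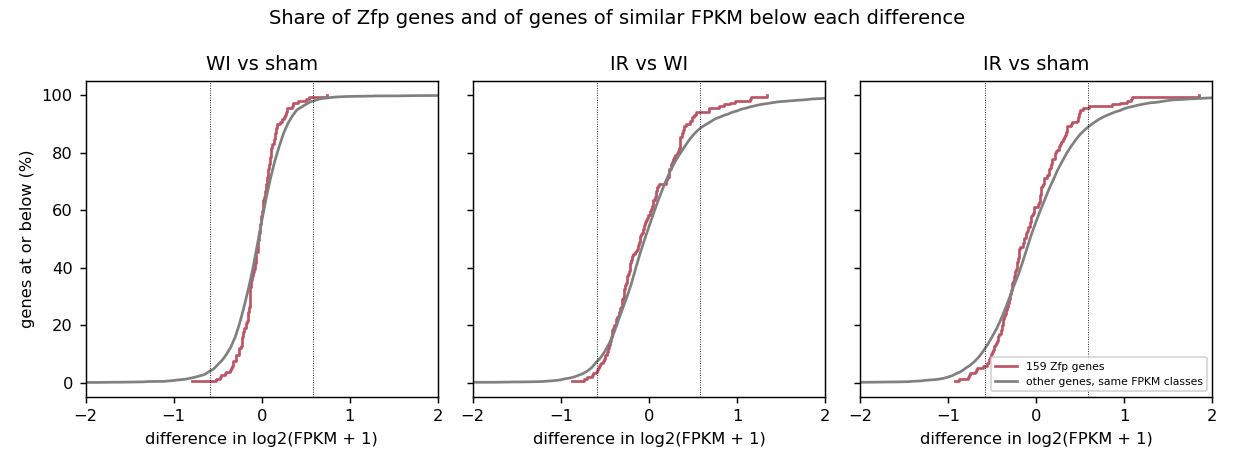
Cumulative share of genes at or below each difference in log2(FPKM + 1) for the 159 Zfp genes (red steps) and for the other genes weighted to the same FPKM classes (grey), with dotted lines at 1.5-fold in either direction. The curves run close together near the middle, and beyond the dotted lines the grey tails are heavier, as for IR against WI with 11.2% of weighted other genes and 5.66% of members at least 1.5-fold higher. The tails depend on the pseudocount of 1. With 0.1, 20.8% of members and 13.0% of all genes were at least 1.5-fold lower in IR than in WI.

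**Figure D3:**
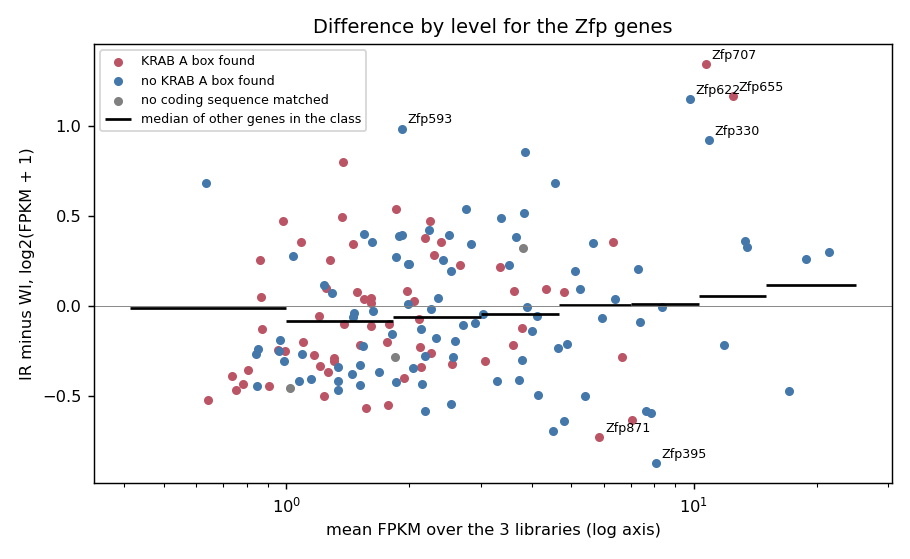
Difference between IR and WI in log2(FPKM + 1) against the mean FPKM of the 3 libraries (log axis) for each of the 159 members, coloured by whether a KRAB A box was found, with black lines at the median of the other genes in each FPKM class. Zfp707, Zfp655, Zfp622 and Zfp330 stand near 10 FPKM with differences of 0.92 to 1.34.

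The direction of the family's median depended on the level filter, and its size on the scale. With at least 5 FPKM required in 1 library, 33 members were left and their median was 0.04 for IR against WI and 0.04 for IR against sham. The summed FPKM of all genes was 475800 in sham, 487900 in WI and 712400 in IR. When FPKM was rescaled to a common sum, the median of all 10792 genes moved to -0.454 for IR against WI and that of the members to -0.535, which left the members 0.0803 below all genes. On that scale 5 members were still at least 1.5-fold higher in IR than in WI, namely Zfp707, Zfp593, Zfp622, Zfp655 and Zfp428, which is 3.14% of members beside 6.04% of all genes. At least 1.5-fold lower on that scale were 74 members (46.5%), beside 38.3% of all genes.

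Differences also moved with transcript length. The other genes in the shortest of 3 length classes (up to 2139 bases) had a median of 0.205 for IR against WI, those in the middle class 0.0205 and those in the longest (3713 bases or more) -0.16. The members went the same way, with medians of 0.074 (31 members), 0.00196 (64) and -0.267 (61). The median transcript length was 3158 bases for members and 2853 for other genes, and the part of length in the members' differences was not tested. Within classes of both FPKM and length, an alternative chosen after seeing the data, the median distance of the members was -0.06 for IR against WI.

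The number of C2H2 fingers was counted in the coding sequence of 156 members and ranged from 0 to 29, with a median of 9. Members with 0 to 3 fingers (27 genes) had a median difference of 0.08 for IR against WI, those with 4 to 9 fingers (62 genes) -0.07 and those with 10 or more (67 genes) -0.19. Higher in IR than in WI were 15 of 27, 25 of 62 and 25 of 67. The order ran against finger number, and 41 of the 67 many-finger members lay below the median of their FPKM class, with a median distance of -0.13. Among the 123 members at 1 FPKM or more throughout, the medians were 0.04 (26 genes), -0.01 (51) and -0.10 (44), and the median distance of the many-finger members from their classes was -0.02. The groups differed in level, with a median mean FPKM of 3.67, 2.17 and 1.62, and less in transcript length, with medians of 3278, 2944 and 3265 bases. Relative to the median of all genes after rescaling to a common sum, the 3 groups stood at 0.0609, -0.0708 and -0.151. For IR against sham the medians were 0.05, -0.09 and -0.21, and for WI against sham all 3 were near 0, at -0.05, -0.03 and -0.03.

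**Figure D4:**
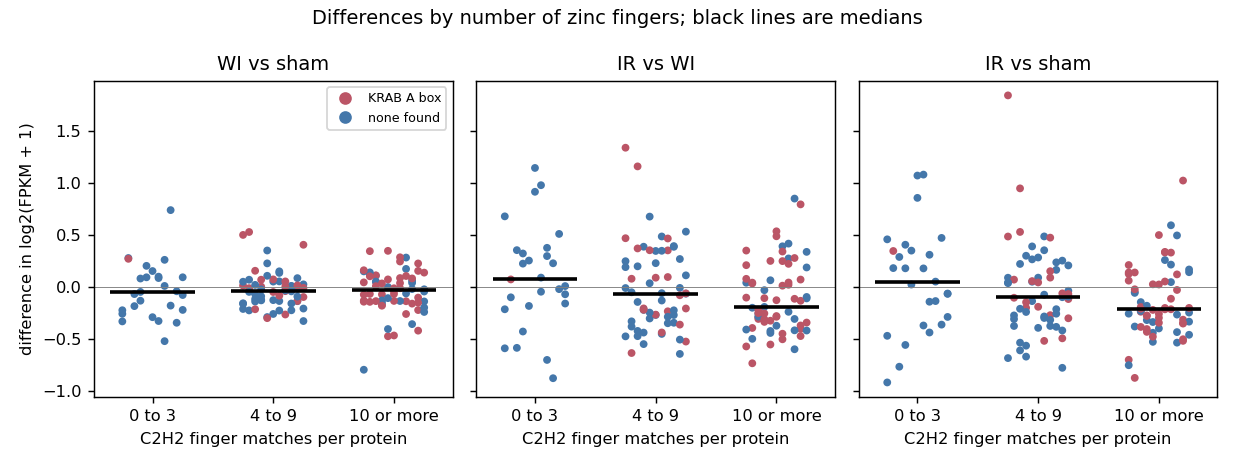
Difference in log2(FPKM + 1) of each member in the 3 comparisons by the number of C2H2 fingers found in its coding sequence, coloured by KRAB A box, with black lines at the group medians. For IR against WI the medians step from 0.08 (0 to 3 fingers) to -0.07 and -0.19 (10 or more), and each group spreads over both signs.

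A KRAB A box was found in 64 members and not found in 92. The median for IR against WI was -0.11 with the box and -0.08 without it, and the distances from the FPKM classes were -0.02 and -0.04. Among the 123 at 1 FPKM or more throughout, the medians were 0.02 (43 genes) and -0.04 (78). Their level was lower, with a median mean FPKM of 1.61 against 2.52. Among the 92 without the box, the 26 with 0 to 3 fingers had a median of 0.05 and the 66 with 4 or more a median of -0.17. This split was not made among the 123, so members that had to be lower in IR enter it, and no order by finger number is read from it.

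Studied KRAB proteins stayed within 1.5-fold without rescaling. Zfp445, which maintains imprinting marks, had 7.17, 7.11 and 5.66 FPKM in sham, WI and IR, and Zfp568, which silences a placental transcript of Igf2, had 2.08, 1.73 and 1.54. Zfp809, which silences proviruses of murine leukemia virus, was at 4.33, 4.16 and 4.50 FPKM, but its lower bound was 0 in each library and its locus holds other genes. Zfp932 had 2.23, 3.11 and 2.29 and Zfp110, which binds the p75 neurotrophin receptor, 6.595, 5.33 and 7.10. Of these 5, 0 passed 1.5-fold in any comparison without rescaling, where 3.14% to 14.3% of all genes did in a given direction. A list this small would hold few at those shares. On the common-sum scale Zfp445 (-0.8) and Zfp932 (-0.81) were at least 1.5-fold lower in IR than in WI, as were 38.3% of all genes. Zfp445 (-0.84) and Zfp568 (-0.76) were at least 1.5-fold lower in IR than in sham on that scale. Zfp57, Zfp37, Zfp30, Zfp69 and Zfp90, the rest of that list, stayed below 1 FPKM.

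The partners of KRAB proteins were near-level in their medians for WI against sham and for IR against sham. Of 28 co-repressor genes listed, 27 were in the tables and 25 passed the filter. Their median difference was 0.01 for WI against sham, -0.10 for IR against WI and -0.00054 for IR against sham. For IR against WI the members had -0.10 as well, and the other genes 0.03. On the common-sum scale the co-repressor median for IR against WI was -0.591, which is 0.137 below all genes, with 0 of the 25 higher. Trim28 was at 18.10 FPKM in sham, 18.17 in WI and 18.61 in IR. Setdb1 was at 3.72, 3.94 and 2.67, with a lower bound of 0 in each library. At least 1.5-fold lower were 2 genes for IR against WI, Cbx5 (heterochromatin protein 1 alpha, 3.04, 3.46 and 1.71 FPKM) and Chd3 (10.44, 10.98 and 6.91), and 1 for IR against sham, Chd4. At least 1.5-fold higher were 0 in any comparison. Beside the 7.4% and 9.49% of all genes lower and the 12.4% and 14.3% higher in the same comparisons, 2 of 25 is near the background.

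The 8 listed transcription factors among the members all passed the filter. Zfp143, an activator of small nuclear RNA and many other promoters, had 1.25, 1.47 and 2.15 FPKM (0.35 for IR against WI), and Zfp384 had 5.87, 4.75 and 6.33 (0.35). Zfp148 (ZBP-89), which binds GC-rich promoters, had 3.92, 3.55 and 2.40 FPKM (-0.42). It was, with Zfp367 (-0.10), 1 of the 2 that were lower in IR than in WI. Zfp281 (0.09), Zfp335 (0.19), Zfp64 (0.42) and Zfp410 (0.68) made up the rest, and the median of the 8 was 0.27. On the common-sum scale that median was -0.175, which is 0.28 above all genes.

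Members with roles in RNA, ribosome, spindle, ubiquitin or SUMO numbered 7 of 8 listed, and their median for IR against WI was 0.36. After Zfp622, the higher ones were Zfp326, a subunit of the DBIRD complex that couples splicing to transcription, with 3.32, 3.20 and 4.998 FPKM (0.51), Zfp451, a SUMO ligase, with 1.76, 1.60 and 2.41 (0.39), Zfp598 (0.36) and Zfp207 (0.30). Zfp106 and Zfp91 were lower (-0.59 and -0.47). For WI against sham 6 of the 7 were lower in WI, with a median of -0.09. On the common-sum scale the median for IR against WI was -0.156, which is 0.298 above all genes. These lists were drawn up with earlier results in view and hold few genes. Of the 6 developmental and adipose regulators listed, Zfp467, which favours fat over bone fate, and Zfp703, with 2.06, 1.71 and 2.18 FPKM, passed the filter, whereas Zfp423, Zfp521, Zfp503 and Zfp462 stayed below 1 FPKM.

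Members clustered along the chromosomes. With starts no more than 1 Mb from the next member, 85 formed 24 groups and 74 stood alone. Chromosome 7 carried 34, chromosome 17 21, chromosome 8 15 and chromosome 13 11. Of the members with a KRAB A box found 44 of 64 lay in groups, and of those with none found 39 of 92. The medians of grouped and lone members were -0.11 and -0.06 for IR against WI and -0.19 and -0.06 for IR against sham. Among the 123 at 1 FPKM or more throughout, they were -0.05 and -0.01, and -0.09 and -0.03.

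On chromosome 7 (mm10, 29768552 to 30169727), the 7 members from Zfp84 to Zfp146 had differences of -0.50 to -0.10 for IR against WI, where 58.5% of all members were lower. Zfp84, Zfp27 and Zfp383 were below 1 FPKM in IR and passed through sham and WI, so they had to be lower there. The other 4, Zfp146, Zfp260, Zfp568 and Zfp790, had a median of -0.17. On the same chromosome (4915217 to 5038446), Zfp628, Zfp865 and Zfp784 likewise had to be lower in IR, and Zfp579 passed through sham only. The remaining member of that group, Zfp524, was level, with 8.76, 8.17 and 8.13 FPKM in sham, WI and IR (-0.01 for IR against WI). Zfp84 shares its locus with another gene. The other 3 large groups held both signs. The 11 members from Zfp160 to Zfp213 on chromosome 17 (21008941 to 23564226) ranged from -0.47 to 0.80, with 5 higher in IR and the top value in Zfp948. The 6 from Zfp708 to Zfp748 on chromosome 13 (67069398 to 67553152), all KRAB genes, ranged from -0.50 to 0.49, and the 7 from Zfp553 to Zfp646 on chromosome 7 (127233443 to 127890970) from -0.41 to 0.47. Of the members at 1 FPKM or more in every library, the chromosome 17 group kept 7, with 3 higher and 4 lower (-0.38 to 0.25). The group from Zfp553 to Zfp646 kept 4, with 1 higher (0.08) and 3 lower, and the chromosome 13 group kept only Zfp58 (0.34). Neighbours thus did not move as a block in the chromosome 17 group. In the groups from Zfp708 to Zfp748 and from Zfp553 to Zfp646 the filter set the sign of several members, so none is read there.

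**Figure D5:**
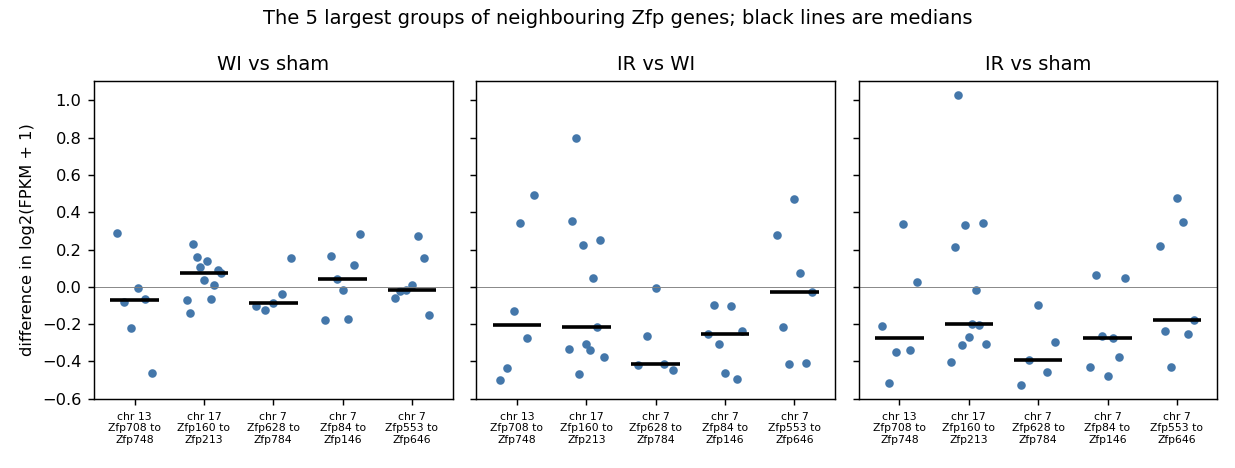
Difference in log2(FPKM + 1) of each member in the 5 groups of 5 or more neighbouring Zfp genes, ordered by position within a group, with black lines at the group medians. For IR against WI the groups from Zfp628 to Zfp784 and from Zfp84 to Zfp146 lie at or below 0, but 4 of 5 and 3 of 7 of their members passed the filter only through other libraries than IR. The other 3 groups spread over both signs, in part through members whose sign the filter set.

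Other zinc finger families with names of their own were placed beside the Zfp genes. The 25 of 35 Zbtb genes past the filter, whose proteins join fingers to a BTB domain, had a median of -0.36 for IR against WI and -0.38 for IR against sham. The medians for IR against WI were -0.03 in 7 Zkscan genes, -0.08 in 5 Zscan genes, 0.11 in 13 Klf genes and -0.03 in 4 Sp genes. Zfp genes, at -0.10, lay inside this range.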

How the data were processed

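Per the submitters' processing notes and the study's methods, the authors mapped read pairs to mm10 with TopHat2 2.0.9 and computed gene FPKM with Cuffdiff of Cufflinks 2.0.2 at default settings. The deposited tables hold FPKM with 95% bounds and a status, which was OK for every member in every library. They hold no counts, so the depth behind each gene cannot be read from them. Gene starts in the tables count from 0 and are printed counted from 1.

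Members and lists were chosen with earlier results of these data known. Differences are on log2(FPKM + 1) over genes that reached 1 FPKM in any library, and no test was run. FPKM classes were widened where they held under 50 other genes. Genes named are, per comparison, the 8 highest and 8 lowest members, the 10 with the highest mean FPKM, the role lists, and Trim28, Setdb1 and the largest moves of the co-repressors. Neighbouring genes, other members of large groups and the family comparisons were added.

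C2H2 fingers (C, 2 to 4 residues, C, 12 residues, H, 3 to 5 residues, H) and KRAB A boxes were found by pattern in GENCODE M1 coding sequences, joined by symbol only. Coding sequences matched 156 of 159 members. A KRAB protein whose box departs from the pattern is counted among those with none found. Scripts (Python 3.11.15, numpy 2.4.6, pandas 2.3.3) were tested on simulated data.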

Additional observations from a re-analysis of the deposited data

How the results depend on the processing

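Over 15 results and 15 alternative settings, 134 of 174 values stayed within the range over genes of the reported median or within 1.5 times the reported count. Smaller pseudocounts raised the counts past 1.5-fold. With 0.1 they were 4 higher and 6 lower for WI against sham, 18 and 33 for IR against WI (all genes 15.7% and 13.0%), and 14 and 34 for IR against sham. With 0.01 they were 5 and 6, 22 and 37, and 17 and 35. Shares of all genes are not given for the remaining counts with 0.1 or for those with 0.01, so these are not read as a result about the members. A 2-fold threshold gave 0 and 0 (all genes 0.751% and 1.1%), 3 and 0 (5.78% and 1.43%), and 4 and 0 (5.35% and 2.15%).

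With the filter set at 5 FPKM in any library (33 members), the members' median changed sign to 0.0387 for IR against WI and 0.0397 for IR against sham. The median distance from genes of similar FPKM was then -0.118 for WI against sham and -0.147 for IR against sham, 0 members were lower for WI against sham, and 4 were higher and 4 lower for IR against sham. The cause was not tested, although fewer genes enter. Shares of all genes under this filter are not given.

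Rescaling to a common sum (TPM) gave medians of -0.0729, -0.535 and -0.587 in the order WI against sham, IR against WI and IR against sham. It left 4 members lower for WI against sham, and 5 higher and 74 lower for IR against WI (all genes 6.04% and 38.3%). For IR against sham, 3 were higher (Zfp707, Zfp593 and Zfp948) and 80 lower. Shares of all genes at 1.5-fold on this scale are given for IR against WI only. Bounds then parted for 1 member in IR against WI (Zfp395, lower) and 4 in IR against sham (Zfp106, Zfp12, Zfp292 and Zfp871, all lower), and no longer for Zfp707. Rescaling by the median ratio changed the direction of no median of the members.

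Without the FPKM filter, bounds parted for 2 genes in IR against WI (Zfp882 and Zfp964) and 2 in IR against sham (Zfp707 and Zfp964). Zfp882 was at no more than 0.38 FPKM in any library and Zfp964 at no more than 0.30. Zfp964 was listed at 0 in IR with both bounds at 0, so any lower bound above 0 parted from it. Shares of all genes without the filter are not given, so these counts are not read as a result about the members. Without members within 1 Mb of another, 5 were higher and 4 lower for IR against WI, and bounds parted for 0 in IR against sham, since Zfp707 has Zfp623 as a neighbour. The classes by FPKM and transcript length were added after seeing the data. No paired analysis was possible because each condition has 1 library, and leaving out a replicate was not possible for the same reason.

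Single libraries, values without counts and wide bounds limit what can be seen. At the median bound width, a difference under 3.62-fold in FPKM could not part the bounds of a member.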
